A study of Mus musculus with 8 samples.

Results

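Voltage-gated sodium channels open during the upstroke of the action potential. Each channel holds 1 large pore-forming alpha subunit, which carries the voltage sensors and the inactivation gate, and smaller beta subunits, single-pass membrane proteins with an immunoglobulin-like domain that modify gating and bring the channel to the cell surface. In the brain the alpha subunits are mainly Nav1.1 (gene Scn1a), Nav1.2 (Scn2a), Nav1.3 (Scn3a) and Nav1.6 (Scn8a). Nav1.1 is best known from inhibitory neurons, Nav1.2 and Nav1.6 from the axon initial segment of excitatory neurons, and Nav1.3 from the immature brain.

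The 7 genes described here are these 4 alpha genes and the beta genes Scn2b, Scn3b and Scn4b, matched by symbol among the 34094 genes of the deposited table. Their identifiers there are ENSMUSG00000064329 (Scn1a), ENSMUSG00000075318 (Scn2a), ENSMUSG00000057182 (Scn3a), ENSMUSG00000023033 (Scn8a), ENSMUSG00000070304 (Scn2b), ENSMUSG00000049281 (Scn3b) and ENSMUSG00000046480 (Scn4b). All 7 had a row and passed the filter on low values. RNA of the hippocampal CA1 field was sequenced from C57BL/6 mice aged 2 months in 2 groups, 4 libraries from mice with a conditional knockout of Brpf1 (cKO, labelled as a knockdown) and 4 from wild-type mice (WT). Brpf1 encodes a scaffold of histone acetyltransferase complexes and is linked to intellectual disability. No label names the Cre driver, the exons removed or the mouse behind each library. A protocol speaks of 3 pairs of mice although each group has 4 libraries, so p-values here describe only the spread among libraries, which may be partly technical. The comparison asks whether transcript levels of these channel genes differ between cKO and WT CA1.

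Unless a sentence gives a level per kilobase, values are normalized reads, which are reads scaled by a size factor for each library. Reads on genes ranged from 40330226 to 46559795 in cKO libraries and from 42346644 to 49897832 in WT libraries, and genes with at least 1 read from 25476 to 26587 in cKO libraries and from 26634 to 27549 in WT libraries. Brpf1 had 848, 1032, 897 and 1004 normalized reads in cKO replicates 1 to 4, against 1358, 1451, 1473 and 1380 in WT replicates 1 to 4, with no overlap (log2 fold change −0.59, SE 0.089, limma adjusted p = 0.132). For Brpf1 the FDR in the authors' deposited table is 1.47e-07. Summed markers of CA1 pyramidal neurons lay between 65719 and 86357 normalized reads in cKO and between 62472 and 83599 in WT. Of these 9 genes, 2 had positive and 7 negative log2 fold changes, with 0 past the test. At an unadjusted limma p under 0.05, 1 of the 9 was higher in cKO, against 4.07% of all genes. The ranges of 1 of the 9 did not overlap, against 4.92% of all genes. Among the 9, Slc17a7 averaged 34517 ± 10493 normalized reads in cKO and 38024 ± 9627 in WT (SD, n = 4 each). Neurod6, a transcription factor gene of pyramidal neurons, averaged 11289 ± 1380 in cKO and 11706 ± 1202 in WT (SD, n = 4 each). Summed markers of the dentate gyrus lay between 10981 and 16065 in cKO and between 12127 and 15996 in WT, and those of CA3 between 9573 and 11728 in cKO and between 9089 and 11244 in WT. Markers of all 3 fields were thus present. In bulk samples fewer cells of a type and less RNA per cell cannot be told apart.

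The alpha genes are close relatives, which bears on how reads are assigned to them. Over the coding sequences of GENCODE M21 (GRCm38), identity was 84.0% between Scn2a and Scn3a, 83.0% between Scn1a and Scn2a and 82.1% between Scn1a and Scn3a, and between 75.3% and 76.3% for Scn8a with each of them. Runs of 100 bases that occur in both transcripts numbered 89 of the 8287 in Scn1a for the pair with Scn2a, 52 for the pair with Scn3a, and 88 of the 8836 in Scn2a for the pair with Scn3a. Scn8a shared no run of 100 bases with any of them, and the beta genes shared none with each other, not even of 50 bases. Shared runs of 50 bases numbered 298 of 8337 in Scn1a for the pair with Scn2a and 287 for the pair with Scn3a. For Scn2a with Scn3a they numbered 483 of 8876, and for Scn3a with Scn8a 6 of 9511. Reads from the shared stretches could have been given to any of the genes that hold them, so a part of their levels is uncertain. The size of that part depends on the read length, which is not stated here.

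These 3 genes also lie in 1 cluster of chromosome 2, where Scn3a and Scn2a are neighbouring coding genes on opposite strands and Scn1a neighbours Scn9a. Scn8a lies on chromosome 15. The beta genes lie on chromosome 9, where Scn2b and Scn4b are neighbours on the same strand and Scn3b lies apart from them. The GRCm38 annotation places a transcript on the opposite strand inside Scn1a (Gm13630, between 48.3 and 91.0 normalized reads in all 8 libraries), inside Scn3a (Gm13595, at most 1.73) and across Scn2b (Gm10684, at most 35.0). The gene Gm47266 on the opposite strand of Scn3b had at most 6.56. Their levels were far below those of the genes they overlap, and no source used here gives the strand setting of the counting. RefSeq promoter windows of 300 bases (GRCm38.p6) were matched for 5 of the 7 genes, and their base composition varied widely: the Scn2b window held 38.3% G and C with 2 CpG sites, while that of its neighbour Scn4b held 66.3% with 26 CpG sites, and the upstream Scn8a window held 70% with 38.

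None of the 7 sodium channel genes passed the test between cKO and WT CA1, and their log2 fold changes lay between −0.29 and 0.19. In simulated data the limma test recovered 0% of 50 genes changed 1.2-fold and 46% of 50 changed 1.5-fold. Real changes of the size seen here could therefore be missed. In limma on the log2 values, and in limma-voom on the recovered reads, 0 of 7 passed an adjusted p of 0.05 (Benjamini-Hochberg over 26135 genes), where 5 of all genes tested did in limma (0.0191%). The members' limma adjusted p lay between 0.674 and 0.986. At an unadjusted p under 0.05 the count was also 0 of 7, against 8.67% of all genes (4.07% higher and 4.6% lower in cKO), and the cKO and WT ranges overlapped for all 7, where 4.92% of genes had ranges that did not overlap (2.57% higher and 2.35% lower in cKO). Exact permutation p-values lay between 0.286 and 0.800 (two-sided, smallest possible value 0.0286), and each was 0.800 after adjustment over the 7 genes. Log2 fold changes were negative for 5 genes and positive for 2, with a median of −0.051, against −0.018 over all genes tested. The authors' deposited table likewise lists no member at an FDR under 0.05, where it lists 0.657% of its genes, and its lowest FDR among the members is 0.75 for Scn4b.

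**Figure D1:**
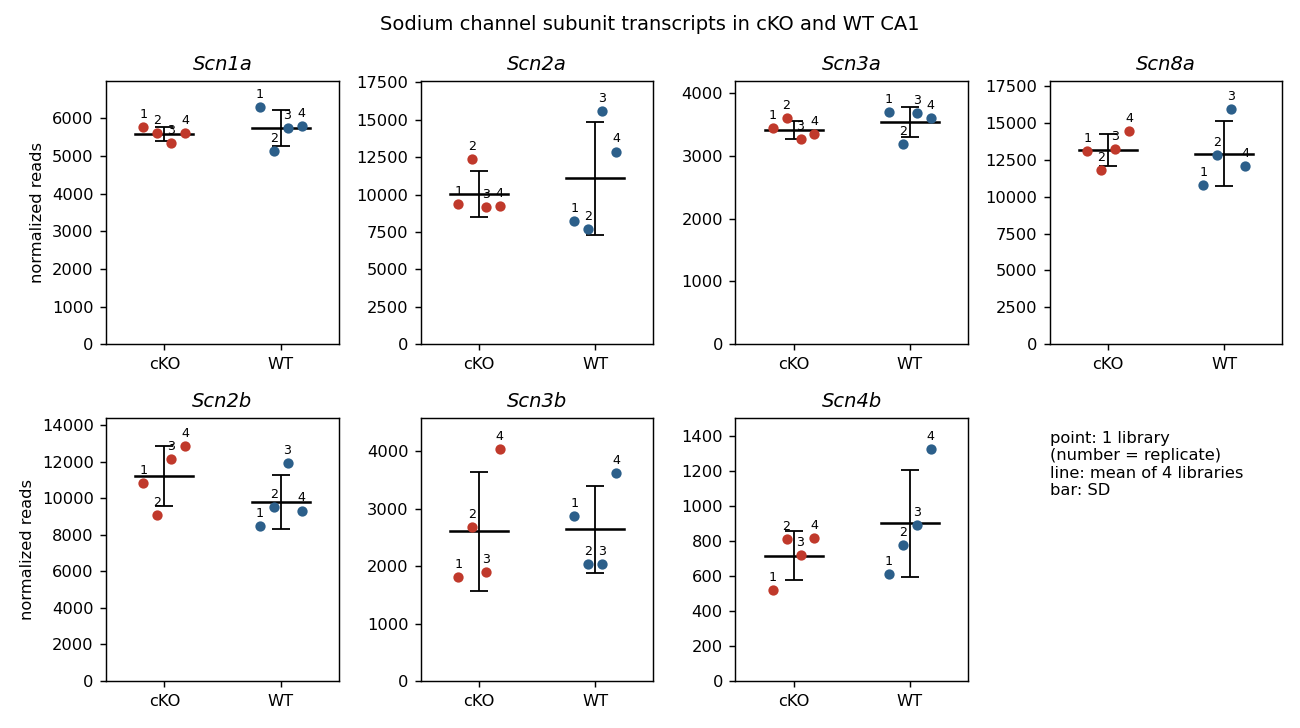
Normalized reads (y axis, from 0) of the 7 sodium channel genes in the 4 cKO and the 4 WT libraries, with 1 point per library labelled by replicate number, the mean as a line and the SD as a bar. The groups overlap in every panel, the points of Scn1a and Scn3a lie close together, and those of Scn2a, Scn3b and Scn4b lie far apart within the groups.

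Scn1a, which encodes Nav1.1, had 5772, 5608, 5334 and 5616 normalized reads in cKO replicates 1 to 4, against 6292, 5123, 5732 and 5782 in WT replicates 1 to 4. All 4 cKO values fell inside the WT range, which WT replicate 2 bounds below and WT replicate 1 above. Between groups the log2 fold change was −0.035 (SE 0.076, limma adjusted p = 0.932; 0.011 without WT replicate 1). The 95% interval covered cKO levels between 86.9% and 109.6% of WT. Together with Scn3a it had the smallest standard errors of the 7 genes.

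Scn3a, which encodes Nav1.3, had 3436, 3602, 3269 and 3351 normalized reads in cKO replicates 1 to 4, against 3701, 3193, 3676 and 3597 in WT replicates 1 to 4. The cKO libraries again lay within the WT range. With a log2 fold change of −0.051 (SE 0.074, limma adjusted p = 0.876), the 95% interval ran between 86.2% and 108% of the WT level. Markers of immature neurons, in which Nav1.3 is best known, summed to between 13523 and 17370 in cKO and between 13932 and 17352 in WT over 9 genes, none of which passed the test or was at 0 in all libraries.

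Scn2a, which encodes Nav1.2, had 9377, 12390.3, 9167 and 9224 normalized reads in cKO replicates 1 to 4, against 8214, 7731, 15579 and 12880.2 in WT replicates 1 to 4. WT libraries split into a low and a high pair that enclosed all cKO values, and 3 cKO libraries lay close together with replicate 2 above them. Its log2 fold change was −0.094 (SE 0.23, limma adjusted p = 0.943), with a 95% interval between 65.8% and 133% of the WT level. This standard error was larger than that of 94.4% of the 9893 genes whose mean log2 value reached 9. The libraries of a group thus differed widely in Scn2a, and the difference between groups was estimated with low precision. The interval is not a limit of detection: Brpf1, at −0.59 with an SE of 0.089, did not pass the test over all genes. Without WT replicate 3 the fold change was positive, at 0.090.

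Scn8a, which encodes Nav1.6, had 13070.0, 11834, 13233 and 14454 normalized reads in cKO replicates 1 to 4, against 10800.4, 12796, 15957 and 12104 in WT replicates 1 to 4. The highest and the lowest of the 8 values were both WT libraries. A log2 fold change of 0.037 (SE 0.11, limma adjusted p = 0.958) had a 95% interval between 86.2% and 122% of the WT level, and the value was negative with quantile normalization (−0.027), without cKO replicate 4 (−0.0097) and without WT replicate 1 (−0.044).

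Among the beta genes, Scn2b had 10833, 9091, 12145 and 12849 normalized reads in cKO replicates 1 to 4, against 8504, 9504, 11932 and 9337 in WT replicates 1 to 4. Its product is the beta subunit that is linked to the alpha subunit by a disulfide bond and increases channel density at the surface. In 2 of 4 cKO libraries the level was above every WT library, and WT replicate 3 was above the other 2. Scn2b had the lowest unadjusted limma p of the 7 (0.157), with a log2 fold change of 0.19 (SE 0.13), an adjusted p of 0.674 and a 95% interval between 94.1% and 139% of the WT level.

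Scn3b encodes a beta subunit that joins the alpha subunit without a covalent bond. Its levels were 1812, 2685, 1891 and 4045 normalized reads in cKO replicates 1 to 4, against 2879.6, 2037, 2041 and 3615 in WT replicates 1 to 4. Both groups held low and high libraries, with cKO replicate 4 and WT replicate 4 the highest, and the coefficient of variation was 39.7% in cKO and 28.7% in WT. Between groups it was −0.054 on the log2 scale (SE 0.29, limma adjusted p = 0.986), with a 95% interval between 60.9% and 152% of the WT level. This value was positive without cKO replicate 1 (0.095), cKO replicate 3 (0.074), WT replicate 1 (0.0015) or WT replicate 4 (0.11). The next coding gene on the chromosome, Gramd1b, a sterol transporter gene on the opposite strand, had 3356 to 8434 normalized reads in cKO and 2862 to 3504 in WT, with overlapping ranges and 3 of 4 cKO libraries above all WT libraries (log2 fold change 0.61, SE 0.25, limma adjusted p = 0.547).

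Scn4b encodes the beta subunit known for the open-channel block behind resurgent sodium current, first of all in cerebellar Purkinje cells, and it is abundant in the striatum. It had 518, 810.2, 718 and 817 normalized reads in cKO replicates 1 to 4, against 611, 776, 888 and 1325 in WT replicates 1 to 4. WT replicate 4 stood above all other libraries and cKO replicate 1 below them. A log2 fold change of −0.29 (SE 0.23, limma adjusted p = 0.720) was the largest in size of the 7, with a 95% interval between 57.7% and 115% of the WT level, and it was −0.090 without WT replicate 4.

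Scn4b and the striatal markers shared their extreme libraries but not their whole order. The sum of 9 striatal markers, none of them at 0 in all libraries, was lowest in WT replicate 1 (4451 normalized reads) and cKO replicate 1 (5310.4), the libraries with the least Scn4b, and highest in WT replicate 4 (7928), the library with the most. WT replicate 3, with the next highest Scn4b level (888), had a striatal sum of 5875, below those of cKO replicates 2, 3 and 4 and of WT replicate 2. Across groups the sum ranged from 5310.4 to 6500.4 in cKO and from 4451 to 7928 in WT, and 0 of the 9 passed the test (3 positive and 6 negative, median −0.072). The most abundant were Ppp1r1b, with 2954 ± 627 normalized reads in cKO and 2897 ± 756 in WT, and Pde10a, with 1619.7 ± 350.3 in cKO and 1464 ± 292 in WT (SD, n = 4 each). The dopamine receptor gene Drd1, a defining striatal marker, had 126 to 235 normalized reads in cKO and 182 to 370.5 in WT. The part of striatal tissue in the Scn4b level was not tested.

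**Figure D2:**
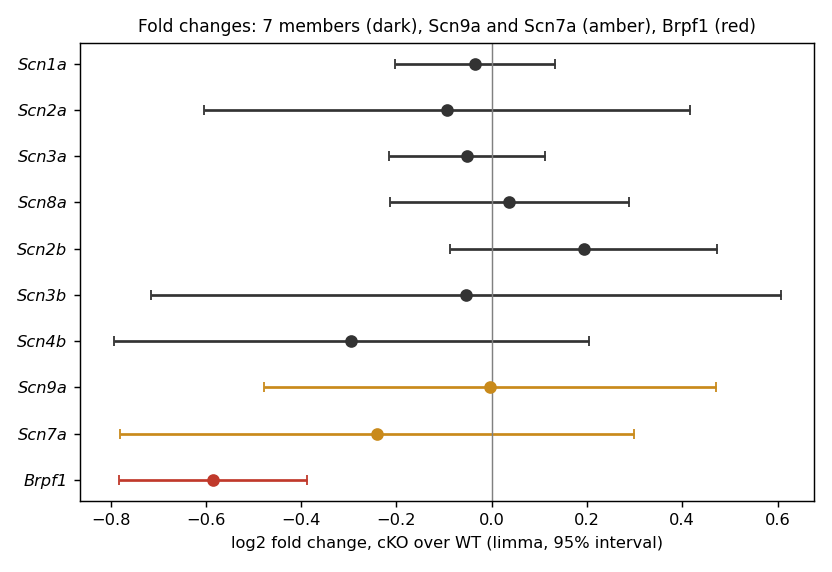
Log2 fold change of cKO over WT (x axis) with its 95% interval from limma for the 7 sodium channel genes (dark), Scn9a and Scn7a of the same family (amber) and Brpf1 (red). The intervals of all 7 members include 0, those of Scn2a, Scn3b and Scn4b are wide, and that of Brpf1 lies away from 0 although it did not pass the test over all genes.

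Levels of different genes were compared per kilobase of annotated exon, from the union of exons in GENCODE M21. Scn2b was highest, with 2412 ± 355 normalized reads per kilobase in cKO and 2109 ± 317 in WT (SD, n = 4 each), and none of its libraries overlapped with those of any other member. Scn8a and Scn2a came next, with 834 ± 68.0 and 789 ± 123 per kilobase in cKO, and 819 ± 139 and 872 ± 297 in WT, and did not differ beyond their spread. Below them, Scn1a had 501 ± 16.3 per kilobase in cKO and 514 ± 42.9 in WT, and Scn3b had 478 ± 189.6 in cKO and 484 ± 139 in WT, so these neighbours also overlapped, and the highest Scn3b libraries reached the range of Scn2a. Scn3a followed with 274 ± 11.4 per kilobase in cKO and 284 ± 19.0 in WT, and Scn4b was lowest with 144 ± 28.0 in cKO and 181 ± 61.3 in WT, where its highest library (266) lay above the lowest of Scn3a (256). The order of group means was the same with the longest coding transcript as the length, and these lengths are those of the later build, since no source used here names the annotation behind the counts.

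**Figure D3:**
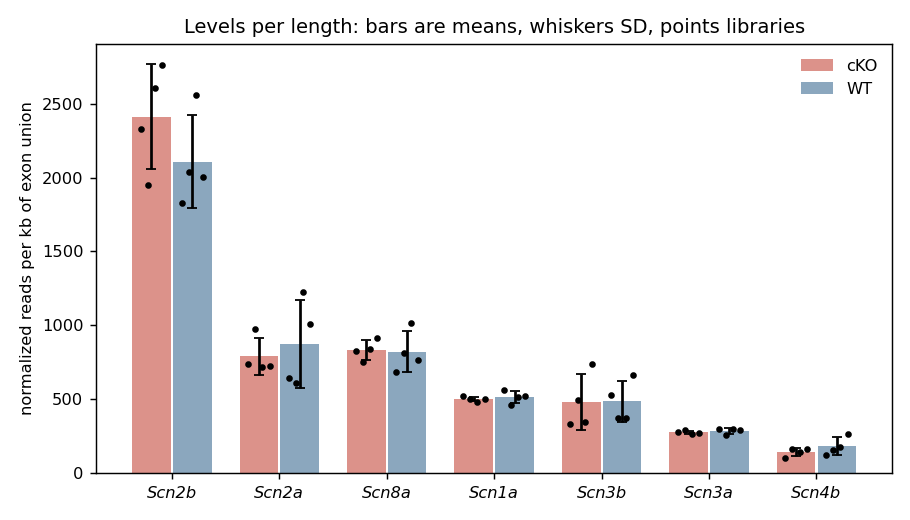
Normalized reads per kilobase of exon union (y axis, from 0) for the 7 sodium channel genes in cKO (left bars) and WT (right bars), with bars for the mean, whiskers for the SD and points for the 4 libraries. Every Scn2b library, from 1827 per kilobase upwards, stands above every library of the other 6 genes, whose highest is Scn2a in WT replicate 3 at 1224.

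As shares of the 4 alpha genes per kilobase, Scn8a made up 34.9% ± 3.55 in cKO and 33.0% ± 3.62 in WT, Scn2a 32.8% ± 3.96 in cKO and 34.3% ± 6.21 in WT, Scn1a 20.9% ± 0.802 in cKO and 21.1% ± 3.68 in WT, and Scn3a 11.4% ± 0.228 in cKO and 11.6% ± 1.62 in WT (SD, n = 4 each). No share moved by more than its spread. Which of Scn8a and Scn2a led differed between libraries: Scn2a led in cKO replicate 2 and in WT replicates 3 and 4, and Scn8a in the other 5. The 3 beta genes summed to 1.17, 1.04, 1.35 and 1.52 times the alpha genes per kilobase in cKO replicates 1 to 4, against 1.13, 1.2, 1.02 and 1.13 times in WT replicates 1 to 4. Replicates 3 and 4 of cKO lay above all WT libraries, and replicates 1 and 2 lay inside the WT range. The size of these ratios depends on the gene length used, here the union of exons.

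Within the groups the members did not vary as 1 block. Scn8a and Scn2b were high and low in the same libraries: across the 8 libraries, log2 values correlated with Pearson's r = 0.862 (exact permutation p = 0.00325, 0.0375 after adjustment over 21 pairs) and Spearman's rho = 0.929 (exact permutation p = 0.00223, adjusted 0.0469). Without the 2 libraries farthest from the median of Scn8a, r was 0.917. In cKO and in WT alone there are too few libraries for a correlation, and that of the deviations from group means was 0.918. Such a relation was not rare in these libraries, as 5.64% of the other genes of that abundance (mean log2 value from 9 upwards) correlated with Scn2b at least as strongly, and 2.22% with Scn8a. The log2 level of Scn8a exceeded that of Scn2b by 0.27, 0.38, 0.12 and 0.17 in cKO replicates 1 to 4, against 0.34, 0.43, 0.42 and 0.37 in WT replicates 1 to 4, so that 3 of 4 cKO libraries lay below all WT libraries.

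Scn1a and Scn3a formed the other pair, with r = 0.837 (exact permutation p = 0.00357, adjusted 0.0375) and rho = 0.738 (exact permutation p = 0.0458, adjusted 0.481), and r = 0.694 without the 2 libraries farthest from the median of Scn1a. Their log2 difference stayed between 0.64 and 0.75 in cKO and between 0.64 and 0.77 in WT. The other 19 of 21 pairs had no exact permutation p under 0.05 by Pearson's r. Correlations this high were rare among the 9891 other genes of that abundance, 0.303% of which reached it with Scn1a and 0.222% with Scn3a. The parts of shared sequence and of library scaling in these correlations were not tested.

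**Figure D4:**
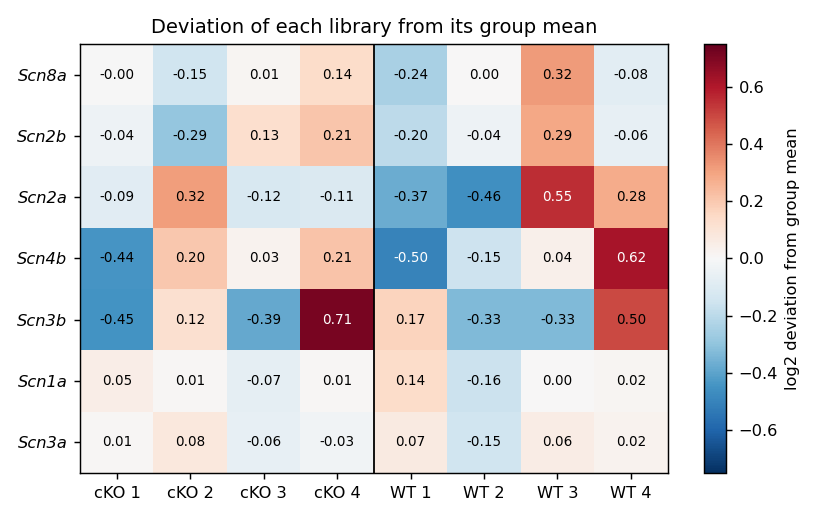
Deviation of the log2 value of each sodium channel gene (rows) from its group mean in each of the 4 cKO and 4 WT libraries (columns), with red for higher and blue for lower. Scn8a and Scn2b share their pattern, Scn1a and Scn3a stay near 0, and Scn2a, Scn4b and Scn3b depart from their group means by up to 0.55, 0.62 and 0.71 on the log2 scale.

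Genes most like each member over the 8 libraries were sought among 13726 genes by Pearson's r of the deviations from group means, as a description. Closest to Scn2a were Zfp786 (r = 0.980) and Ccdc103 (0.977), and closest to Scn8a were Plxna1, a semaphorin receptor gene (0.991), and Ubqln1 (0.987). For Scn2b these were Hs2st1 and Setbp1 (0.994 each), for Scn1a Eif4ebp1 (0.967) and Krt222 (0.961), for Scn3a Rcbtb1 (0.981) and Negr1 (0.980), and for Scn3b Nkap (0.956) and Trim47 (0.95). Scn4b was most like Mlxip (0.968) and Penk (0.953), the proenkephalin gene, which is abundant in striatal neurons.

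Of 7 other genes of the sodium channel family, 5 were tested and 0 passed in either direction, 1 with a positive and 4 with a negative log2 fold change (median −0.24). Scn7a and Scn9a averaged 247 ± 81.0 and 364 ± 111 in cKO, and 289.5 ± 79.0 and 354 ± 49.7 in WT (SD, n = 4 each), while Scn4a, Scn10a and Scn11a had at most 12.0 normalized reads in any library.

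None of the channel's partners passed the test. The cytoplasmic partners, such as the fibroblast growth factor homologous factors, calmodulin and the ubiquitin ligase Nedd4l, had 13 positive and 5 negative log2 fold changes among 18 genes tested (median 0.069), and 0 passed over all genes. Fgf13, the most abundant of the homologous factors, had 10847 ± 1273 normalized reads in cKO and 9959.6 ± 395 in WT (SD, n = 4 each). The tyrosine kinase gene Fyn had 5235 ± 385 in cKO and 4515 ± 380.3 in WT (log2 fold change 0.21, SE 0.083, limma adjusted p = 0.529). Sgk1, a kinase gene induced by glucocorticoids, had 2844 to 5808 in cKO and 2639 to 3171 in WT, with 2 of 4 cKO libraries above all WT libraries (log2 fold change 0.41, SE 0.19, limma adjusted p = 0.587). Without cKO replicate 2 the Sgk1 value was 0.21.

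Scaffold genes of the axon initial segment and the nodes of Ranvier, where the channels are anchored through ankyrin G and spectrin, had 16 positive and 8 negative values among 24 genes (median 0.030), with 0 past the test. Ank3, the ankyrin G gene, had 8508 ± 2041 normalized reads in cKO and 7288 ± 1687 in WT (log2 fold change 0.22, SE 0.19, limma adjusted p = 0.751). Sptbn4, the beta IV spectrin gene, had 8321 ± 295 in cKO and 8311 ± 460.2 in WT (SD, n = 4 each). Cntnap2, an adhesion gene of the region beside the node, had the lowest p of the list, with 5424 ± 579 in cKO and 4529 ± 373 in WT (log2 fold change 0.26, SE 0.092, limma adjusted p = 0.514). Mapre3, a microtubule end-binding protein gene, and Ank1, an ankyrin gene, had log2 fold changes of 0.24 (SE 0.12, limma adjusted p = 0.600) and 0.29 (SE 0.15, limma adjusted p = 0.607). Without WT replicate 1 they were 0.125 for Mapre3 and 0.135 for Ank1. The secretase genes, whose products cut the beta subunits, had 8 positive and 1 negative value (median 0.12), with 0 past the test. Bace2 and Ncstn had log2 fold changes of 0.79 (SE 0.51) and 0.12 (SE 0.095).

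Regulators of sodium channel transcripts and of their exon choice had 14 positive and 9 negative values among 23 genes (median 0.022), with 0 past the test. Tra2a, a splicing factor gene, had 3323 to 4368 normalized reads in cKO and 4413 to 5675 in WT, without overlap (log2 fold change −0.31, SE 0.11, limma adjusted p = 0.510). The ranges of 1 of the 23 genes did not overlap, against 4.92% of all genes. The neuronal splicing factor genes Rbfox1 and Rbfox3 had log2 fold changes of 0.21 (SE 0.083) and 0.25 (SE 0.10), each with a limma adjusted p of 0.529. Rest, the repressor that keeps neuronal genes such as Scn2a silent outside neurons, had 329 ± 59.8 normalized reads in cKO and 414 ± 29.6 in WT (SD, n = 4 each, limma adjusted p = 0.553). The gene-level table does not separate transcripts, so the alternative exons of the alpha genes, which change during development, were not analysed here.

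Sodium pumps and exchangers, which restore the sodium gradient after firing, had 6 positive and 3 negative values among 9 genes (median 0.14), and 0 passed. Atp1b1, a pump beta subunit gene, had 82382 to 90394 normalized reads in cKO and 73182 to 81089 in WT, without overlap (log2 fold change 0.16, SE 0.062, limma adjusted p = 0.524). With quantile normalization the Atp1b1 value was 0.067. Atp1b3, another pump beta subunit gene, had 3534 to 3921 in cKO and 3958 to 4354 in WT, also without overlap (log2 fold change −0.14, SE 0.069, limma adjusted p = 0.594). These were 2 of the 9 genes, named because their ranges did not overlap, against 4.92% of all genes (2.57% higher and 2.35% lower in cKO). The sodium leak channel gene Nalcn had 5609 ± 611 in cKO and 4993 ± 204.4 in WT (SD, n = 4 each, limma adjusted p = 0.616), and none of the 4 leak channel genes tested passed (2 positive and 2 negative, median 0.0068). These lists hold abundant genes, and among the 9893 genes of similar or higher abundance (mean log2 value from 9 upwards) the median log2 fold change was 0.033, with 58.7% positive.

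Interneuron markers, which bear on Scn1a, had 13 positive and 2 negative values among 15 genes (median 0.14), with 0 past the test. At an unadjusted limma p under 0.05, 1 of the 15 was higher in cKO, against 4.07% of all genes, and 1 had no overlap, against 4.92%. Their sums ran from 43362 to 57676 in cKO and from 41702 to 51916 in WT. Oligodendrocyte markers had 12 negative values among 12 (median −0.27), also with 0 past the test, and sums from 105164 to 164663 in cKO and from 128558 to 189140.0 in WT. At an unadjusted p under 0.05, 3 of the 12 were lower in cKO, against 4.6% of all genes, and 2 had no overlap, against 4.92%. Chosen after their values were seen, these 2 were Aspa, with 457 ± 74.6 normalized reads in cKO and 840.0 ± 154 in WT (SD, n = 4 each, limma adjusted p = 0.261), and Ermn, with 2179 ± 589 in cKO and 3404 ± 456 in WT (SD, n = 4 each, limma adjusted p = 0.496). Thalamic markers had 8 negative values among 8 (median −0.24), with sums from 6240.3 to 7621 in cKO and from 6723 to 7874 in WT. Choroid plexus markers had 9 negative values among 9 (median −0.72), with sums from 10839 to 48475 in cKO and from 5531 to 169146 in WT, and 0 of either list passed the test. The part of cell type makeup in the levels of the sodium channel genes was not tested.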

How the data were processed

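Per the labels' protocols, RNA was extracted with Trizol and libraries were made with a stranded mRNA kit. The submitters' processing notes name STAR, StringTie and DESeq2 and the build mm9, without versions or roles. The authors deposited 1 table of log2 values per gene and library, each equal to log2(reads / size factor + 1), since 100% of values gave whole reads (tolerance 0.001). Its other columns, the fold change on the log2 scale, p-value and FDR deposited by the authors, are quoted only where named.

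limma 3.58.1 in R 4.3.3 compared cKO with WT on those log2 values, with a trend of variance on mean, robust moderation and no covariate. A total of 26135 genes had at least 1 normalized read in at least 4 libraries and were tested, with Benjamini-Hochberg adjustment. Log2 fold changes carry the pseudocount of 1, which understates changes of low genes. Members were also compared by exact permutation of libraries (scipy 1.17.1, Python 3.11.15), and coding sequences were aligned with biopython 1.88. The script was tested on simulated data.

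Named are the members, Brpf1, neighbouring and overlapping genes, and, from each family or pathway list, genes without overlap between groups or among the 3 lowest p-values, the 2 most abundant genes of a marker list, and the 2 genes most correlated with each member. Fgf13, Ank3, Sptbn4, Rest, Drd1, Scn7a and Scn9a were chosen after their values were seen. The members and lists were chosen with earlier results of these data known. Lists are described by counts and medians. Some genes and sequences that these rules name are not reported here. Alternatives were quantile normalization, TMM size factors, 2 other filters, a pseudocount of 0.1, array weights, limma-voom on the recovered reads (4 genes past the test), a replicate block, a threshold of 0.1 and leaving out each library. The longest coding transcript as gene length was added after seeing the data.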

Additional observations from a re-analysis of the deposited data

Results flagged for a closer look

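In the cKO group, Scn2a in replicate 2 (12390.3 normalized reads) stood apart from the other 3 cKO libraries (9167 to 9377): its gap to the nearest of them was 0.935 of the whole range of the group, above Dixon's 95% critical value for 4 samples. Chance flags about 1 in 20 groups, and 14 groups were checked, the 7 genes in cKO and in WT. The WT libraries spanned a wider range of Scn2a, from 7731 to 15579.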

How the results depend on the processing

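No sodium channel gene passed the test under any of the 17 alternatives. Scn2b, Scn3a and Scn4b kept the direction of their log2 fold change under the 16 alternatives run for each, with leave-one-out values from 0.12 to 0.29 for Scn2b, from −0.10 to −0.029 for Scn3a and from −0.46 to −0.090 for Scn4b. Leaving out 1 library each, the log2 fold change ranged from −0.25 to 0.090 for Scn2a, from −0.044 to 0.14 for Scn8a, from −0.088 to 0.011 for Scn1a and from −0.29 to 0.11 for Scn3b, so the direction of these 4 depended on single libraries: it turned for Scn2a without WT replicate 3, for Scn1a without WT replicate 1, for Scn8a without WT replicate 1 or cKO replicate 4, and for Scn3b without cKO replicates 1 or 3 or WT replicates 1 or 4. The direction of Scn8a also turned with quantile normalization (−0.027). Among all genes, 5 passed as reported, 8 with array weights and 2 with the replicate block, and 4 to 7 when 1 library was left out; the cause was not tested. No label says whether the replicate numbers pair the libraries. Deviations of same-numbered cKO and WT libraries correlated at 0.035, 0.010, 0.059 and −0.018, which cannot exclude pairs that share a weak effect. The block changed no call among the sodium channel genes. With the other gene length, the cKO minus WT differences of shares and ratios per kilobase moved by less than the spread of the values. For the beta to alpha ratio this difference was 0.11 instead of 0.15. The ratios themselves depend on the length: Scn8a had 1150 per kilobase in cKO instead of 834, while Scn2b stayed at 2412. Genes with few reads, such as Scn4a, Scn10a and Scn11a, are limited by depth.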
